A study of Mus musculus with 2 samples.

Results

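The 10 genes described here were measured in pancreatic tumours of transgenic mice: the neuropeptide precursors Penk and Gal, the amine enzymes Hdc, Ddc and Tph1, and the prohormone-processing genes Pcsk1, Pcsk2, Pcsk1n, Cpe and Pam. They were chosen by symbol, and all 10 were found among the 32285 genes of the count matrices. Single-cell RNA was measured in 2 libraries made with the Chromium 3′ kit, 1 library for EL1 and 1 for WTg, both from pancreas at 6 weeks of age. EL1 mice are of the FVB/N strain and carry 2 transgenes, SV40 large T antigen and firefly luciferase, each under a rodent elastase I promoter, which is active in acinar cells. WTg mice carry both of these plus the coding sequence of Mettl3 driven by the CAG promoter, a promoter active in most cell types. The Mettl3 line was made in C57BL/6 mice, so that strain background and transgene cannot be told apart, and both libraries come from animals with the T antigen. The number of animals behind each library was not given in the sources used here.

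Peptide hormones and neuropeptides are made as long precursors that enter the regulated secretory pathway and are cut in dense-core granules. The convertases encoded by Pcsk1 and Pcsk2 cut after pairs of basic residues, carboxypeptidase E (Cpe) trims the basic residues from the new end, and the monooxygenase encoded by Pam turns a terminal glycine into an amide. Pcsk1n encodes proSAAS, a granule protein that can inhibit the convertase of Pcsk1. Penk encodes the precursor of the enkephalins and Gal that of galanin. Hdc makes histamine from histidine, Tph1 catalyses the first step of serotonin synthesis outside the brain, and Ddc makes serotonin and dopamine from their immediate precursors. Chga encodes chromogranin A, a core protein of the same granules, and is used to mark neuroendocrine cells.

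The coding stretches below show what these enzymes act on. They are read from mouse transcripts of GENCODE M21 on build GRCm38, 5′ to 3′ on the coding strand, with the codons of basic pairs in capitals and, for galanin, also the glycine codon that precedes the pair. The Penk coding sequence of 268 codons held 6 copies of Met-enkephalin and 1 of Leu-enkephalin. A basic pair stood before each of the 7 copies.
Penk, Met-enkephalin copy 1, codons 98 to 106: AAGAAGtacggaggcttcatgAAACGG
Penk, Leu-enkephalin copy 1, codons 229 to 237: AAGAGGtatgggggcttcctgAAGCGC
Penk, Met-enkephalin copy 6, codons 260 to 268: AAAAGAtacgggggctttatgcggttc
Gal, start of galanin, codons 31 to 37: AAGAGAggttggaccctgaac
Gal, end of galanin, codons 58 to 64: catggcctcacaGGCAAGAGG
The first 2 have a basic pair on both sides, whereas copy 6 ends the reading frame without one. The end of galanin carries the glycine and the basic pair, which is the arrangement for cutting, trimming and amidation in turn. These stretches lie on the minus strand within single exons, at chr4:4134328-4134354, chr4:4133935-4133961 and chr4:4133842-4133868 for Penk and at chr19:3413320-3413340 and chr19:3411592-3411612 for Gal.

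The 10 genes lie on 9 chromosomes, and only Hdc and Pcsk2 share one, at chr2:126593667-126619299 and chr2:143546156-143816285. Of the annotated genes that overlap a member, 2 had more than a few UMIs. B230216N24Rik on the strand of Pam had 284 UMIs in EL1 and 304 in WTg, and Pcsk2os1 on the opposite strand of Pcsk2 had 16 and 122. Reads that fall in such an overlap may have been counted for either gene or for none.

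After filtering, 1113 cells of EL1 with 37961287 UMIs (unique molecular identifiers, each counted once) and 905 cells of WTg with 33007683 UMIs were kept, with medians of 26543 and 34836 UMIs per cell. Mettl3 was measured at 15.1 CPM in EL1 and 66.7 CPM in WTg, 4.40-fold higher in the library labelled WTg. CPM here means UMIs per 1000000 UMIs of the same cells. There were 15 barcodes in both libraries, of which none was kept in both. Leukocyte-like clusters held 49 cells of EL1 and 66 of WTg although the label reads epithelial cell. All 12 acinar markers had UMIs in both libraries, whereas the 7 beta cell markers, insulin genes included, summed to at most 1.30 CPM in any class of cells by Chga. With 1 library per group no difference could be tested. The 95% intervals given are exact and cover counting error only, and the spread between animals is not known.

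Cells were split by Chga, as at least 10 Chga UMIs per 10000 UMIs of the cell (Chga-high) or under 1 (Chga-low). EL1 had 606 Chga-high and 357 Chga-low cells, and WTg 417 and 318. These classes are ranges of a continuous measure and not cell types: 45 cells of EL1 and 77 of WTg lay between 8 and 12.5 per 10000, and 150 and 170 cells fell between both classes. The summed level of 10 neuroendocrine markers was 7334 CPM in Chga-high against 56.8 CPM in Chga-low cells of EL1, and 4542 against 39.1 CPM in WTg. Chga itself made up 6770 and 3871 CPM of the sums in Chga-high cells, and 27.5 and 14.5 CPM of those in Chga-low cells. As Chga defines the classes, its part of this contrast was fixed by the split. The 12 acinar markers summed to 78830 CPM in Chga-high and 104542 CPM in Chga-low cells of EL1. In WTg they summed to 85414 and 134628 CPM.

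First, the libraries were compared over all kept cells. The neuropeptide genes differed in opposite directions. Penk was measured at 32.5 CPM (95% interval 30.7 to 34.3) in EL1 against 14.7 CPM (13.4 to 16.1) in WTg, 2.21-fold lower in WTg. Gal was measured at 173 CPM (168 to 177) in EL1 against 465 CPM (457 to 472) in WTg, 2.69-fold higher in WTg. The intervals of the libraries did not overlap for either gene, but they leave out the spread between animals. For Penk the difference stayed in direction but fell under 2-fold once the 5 cells with most Penk UMIs were left out of each library, at a log2 ratio of -0.94.

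Among the amine enzymes, Hdc was at 24.6 CPM (23.0 to 26.2) in EL1 against 4.97 CPM (4.24 to 5.79) in WTg, 4.95-fold lower in WTg. The log2 ratio of -2.31 became -1.04 with cells weighted equally and -3.39 without the 5 cells with most UMIs in each library. Ddc differed little, with 28.3 CPM (26.7 to 30.1) in EL1 against 23.0 CPM (21.4 to 24.7) for WTg and a log2 ratio of -0.30 (-0.44 to -0.17). Tph1 had 1 UMI in EL1 and 0 in WTg, which allows up to 0.0909 CPM in WTg at 3 counts, with an exact upper limit of 0.112 CPM. Thus the gene for the first step of serotonin synthesis was at the limit of detection in both libraries while Ddc was readily counted. The 1 UMI of Tph1 lay in a macrophage-like cell.

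Among the processing genes, the difference of Pcsk2 was the largest of the 9 members with at least 10 UMIs. Its 62 UMIs in EL1 gave 1.63 CPM (1.25 to 2.09) and its 1159 UMIs in WTg 35.1 CPM (33.1 to 37.2), with a log2 ratio of 4.43 (4.06 to 4.82) or 21.5-fold. Pcsk1 was at 10.3 CPM (9.33 to 11.4) in EL1 against 19.7 CPM (18.2 to 21.3) in WTg, 1.91-fold higher and just under 2-fold. Pcsk1n, for proSAAS, was at 0.685 CPM in EL1 from 26 UMIs and at 4.09 CPM in WTg from 135 UMIs, 5.97-fold higher. In EL1, 1 cell held 13 of the 26. The log2 ratio of 2.58 became 1.73 with cells weighted equally and 3.59 without the 5 cells with most UMIs in each library. The enzymes that act after the cut differed little. Cpe was at 291 CPM in EL1 against 385 CPM in WTg, 1.32-fold higher. Pam had 3416 UMIs in EL1 (87.0 to 93.1 CPM) and 3569 in WTg, the latter being 108 CPM, with a log2 ratio of 0.26 (0.20 to 0.33). Pcsk2os1, which lies antisense to Pcsk2, was at 0.421 CPM in EL1 and 3.70 CPM in WTg.

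Of the 9 members with at least 10 UMIs, 3 were at least 2-fold higher in WTg (Gal, Pcsk2 and Pcsk1n), where 10.1% of 16167 genes were, and 2 were at least 2-fold lower (Penk and Hdc), where 6.90% of all genes were. The median log2 ratio of the members was 0.40 and that of all genes -0.14. Scaling the libraries by TMM factors, which use the bulk of the genes, moved all ratios by 0.11 on the log2 scale and put Pcsk1 at 1.05, past 2-fold.

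**Figure D1:**
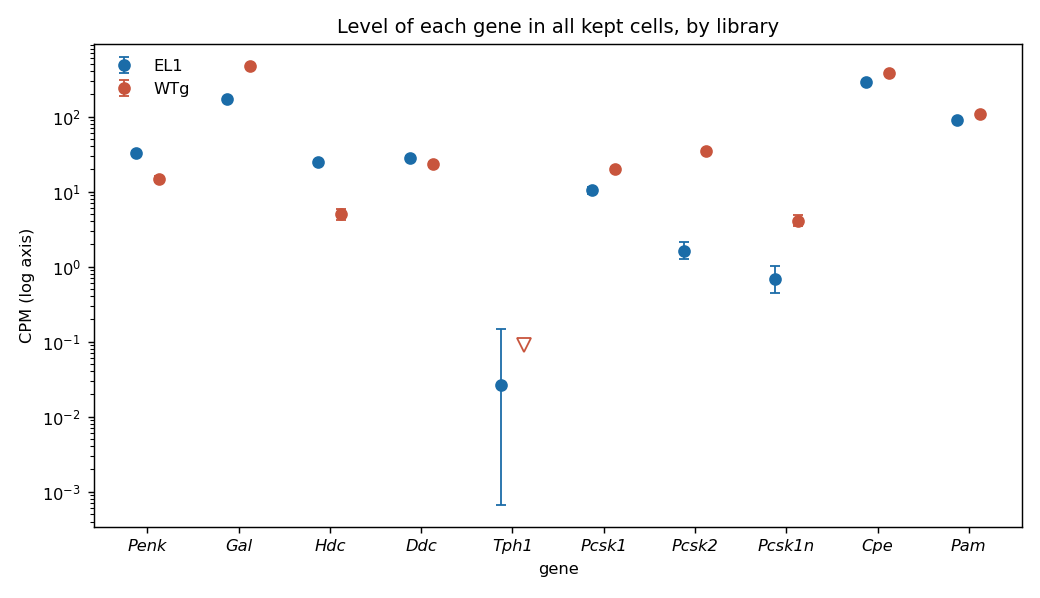
Level of the 10 genes in all kept cells of EL1 (blue) and WTg (red), in CPM on a log axis. Points are sums of UMIs over cells, bars are 95% Poisson intervals, and an open triangle marks 0 UMIs, drawn at the level of 3 counts. Penk and Hdc sit lower in WTg, Gal, Pcsk2 and Pcsk1n sit higher, and Ddc, Cpe and Pam lie close together.

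The next comparison was between Chga-high and Chga-low cells, which asks whether the members were found with the granule protein. In EL1, 7 of 9 members were at least 2-fold higher in Chga-high cells, where 12.3% of 14659 genes were, and 0 were at least 2-fold lower, where 8.52% of all genes were. Both neuropeptide genes were among them. Penk had 1220 UMIs in Chga-high cells (62.4 CPM) and 6 in Chga-low cells (0.475 CPM), a log2 ratio of 7.04 (5.91 to 8.49). All 6 lay in 1 endothelial-like cell. Gal was at 243 CPM in Chga-high and 70.1 CPM in Chga-low cells, a log2 ratio of 1.79 (1.69 to 1.90). Gal was seen in 153 of 357 Chga-low cells, and in 7 of 55 macrophage-, lymphocyte- and erythroid-like cells of EL1, which are shallower. In the barcodes removed by the filter Gal was at 57.8 CPM (45.1 to 73.1), close to the 70.1 CPM of Chga-low cells. These barcodes failed on genes, UMIs or mitochondrial share, so they are not a measure of free RNA alone. In EL1, Gal was at 8.06 CPM (2.20 to 20.6) in macrophage-like cells and at 98.3 CPM (26.8 to 252) in erythroid-like cells, each from 4 UMIs. The part of free RNA in the level of Chga-low cells was not tested.

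The processing genes followed. In EL1, Pcsk1 was at 16.3 CPM in Chga-high and 3.01 CPM in Chga-low cells, 5.43-fold higher, and Pam at 140 and 31.6 CPM, 4.42-fold higher. Pcsk2 had 61 UMIs in Chga-high cells and 1 in Chga-low cells, a log2 ratio of 5.30 (2.77 to 10.6), and Pcsk1n had 23 and 2 UMIs, a log2 ratio of 2.89 (0.88 to 6.02). Both of these rest on few cells. Without the 5 cells with most UMIs in each class, 0 Pcsk2 UMIs were left in Chga-low cells. The log2 ratio of Pcsk2 was then 2.30, with 3 counts in place of 0. Cpe, at 364 CPM against 195 CPM, was 1.86-fold higher and remained under 2-fold. Cpe was seen in 250 of 357 Chga-low cells at a median of 28633 UMIs, and in 12 of 55 macrophage-, lymphocyte- and erythroid-like cells of EL1 at a median of 5791.

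In WTg, 5 of 9 members were at least 2-fold higher in Chga-high cells, where 11.7% of 14652 genes were, and 0 were at least 2-fold lower, where 13.0% of all genes were. Pcsk2 stood out, with 1110 UMIs in Chga-high cells (64.4 CPM) and 5 in Chga-low cells (0.520 CPM), a log2 ratio of 6.95 (5.73 to 8.58). Pcsk1 was at 29.7 against 5.92 CPM, 5.01-fold higher, and Pam at 160 against 43.7 CPM, 3.65-fold higher. Pcsk1n had 133 UMIs against 0, 24.7-fold higher with 3 counts put in place of 0 for the group. The exact lower limit of its log2 ratio was 4.31. Gal was at 556 against 249 CPM, 2.24-fold higher, and Cpe at 452 against 246 CPM, 1.84-fold higher. The call for Gal depended on the cut. With 1 cut at 20 Chga UMIs per 10000 its log2 ratio was -0.17 in WTg and 0.87 in EL1, and with 1 cut at 5 it was 0.97 in WTg. Without the leukocyte-, endothelial- and erythroid-like clusters, left out after seeing the data, it was 0.93 in WTg. The cut at 20 also put Pcsk2 in WTg at 3.68.

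Over all kept cells, the ratios of Penk and Hdc differed between the libraries. In WTg, Penk was at 19.5 CPM in Chga-high and 13.9 CPM in Chga-low cells, a log2 ratio of 0.49 (0.19 to 0.79). Of its 134 UMIs in Chga-low cells of WTg, 110 were in 21 acinar-like cells, with at most 22 in a cell. Hdc in WTg was at 7.08 CPM against 4.26 CPM, a log2 ratio of 0.73 (0.21 to 1.28), and in EL1 at 44.5 against 3.72 CPM, a log2 ratio of 3.58 (3.16 to 4.04). The Hdc of Chga-low cells lay mainly in neutrophil-like cells, which held 43 of its 47 UMIs in EL1 and 41 of 41 in WTg. Neutrophils are known to express this gene. Without the same 3 kinds of clusters the log2 ratio of Hdc was 9.01 (6.53 to 14.3) in EL1. In WTg it was 4.27 with 3 counts in place of 0. Hdc was thus past 2-fold in both libraries, and no difference between them is shown in this setting. With each cell weighted equally it was 0.15 in EL1 and -2.85 in WTg. The neutrophil-like cells had medians of 2588.5 UMIs in EL1 and 2805 in WTg. Of 8 markers of mast cells and basophils, the other blood cells that make histamine, 7 were at 0 in every class of both libraries, and Cpa3 alone had UMIs.

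Ddc did not follow Chga. Its level was 29.7 CPM in Chga-high and 24.7 CPM in Chga-low cells of EL1, and 22.0 and 26.5 CPM in WTg. The log2 ratios were 0.27 (0.06 to 0.47) and -0.27 (-0.50 to -0.03). Over the members, the median log2 ratio of Chga-high over Chga-low cells was 2.44 in EL1 and 1.16 in WTg, the bound for Pcsk1n included, against 0.20 and 0.21 over all genes tested.

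**Figure D2:**
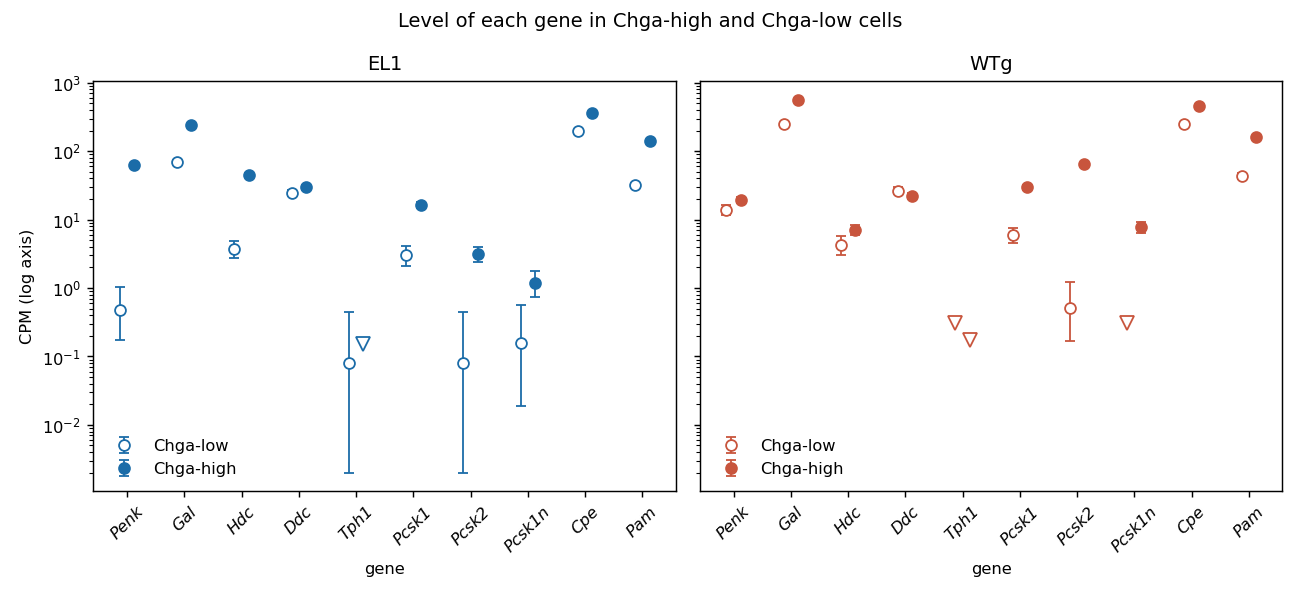
Level of the 10 genes in Chga-low (open circles) and Chga-high cells (filled circles) of EL1 (left) and WTg (right), in CPM on a log axis with 95% Poisson intervals. Open triangles mark 0 UMIs, drawn at the level of 3 counts. Penk is far apart between the classes in EL1 and close together in WTg, Pcsk2 is far apart in both, and Ddc is close together in both.

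Finer bins of Chga showed at which level each gene appeared. In EL1, Penk was at 0 in the 189 cells without Chga, at 2.69 CPM in cells with 10 to 30 Chga UMIs per 10000, at 58.1 CPM with 30 to 100 and at 157 CPM with 100 and over. Hdc took the same course in EL1, at 1.90, 38.9 and 117 CPM in these bins. Both genes were thus highest in the top 2 bins. The 47 Hdc UMIs of EL1 cells without Chga, at 11.0 CPM, are those of Chga-low cells described above. In WTg, Penk was at 12.9, 20.3 and 69.0 CPM and Hdc at 0.518, 7.18 and 60.5 CPM in the same bins. Penk also had 76 UMIs in the 231 WTg cells without Chga. The top bin holds 45 cells in WTg and 158 in EL1.

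The convertases were graded. In WTg, Pcsk2 was at 7.16 CPM with 1 to 10 Chga UMIs per 10000, at 24.4 CPM with 10 to 30, at 94.6 CPM with 30 to 100 and at 228 CPM with 100 and over. In EL1 it stayed at or under 4.43 CPM in every bin. Pcsk1 was higher in each next bin in both libraries, reaching 21.8 CPM in EL1 against 63.0 CPM in WTg. Pam went from 27.3 CPM without Chga to 225 CPM in the top bin in EL1, and from 47.2 to 406 CPM in WTg. Gal had its maximum in the middle, at 298 CPM in EL1 and 742 CPM in WTg with 10 to 30, and was at 202 CPM in the top bin of both libraries.

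**Figure D3:**
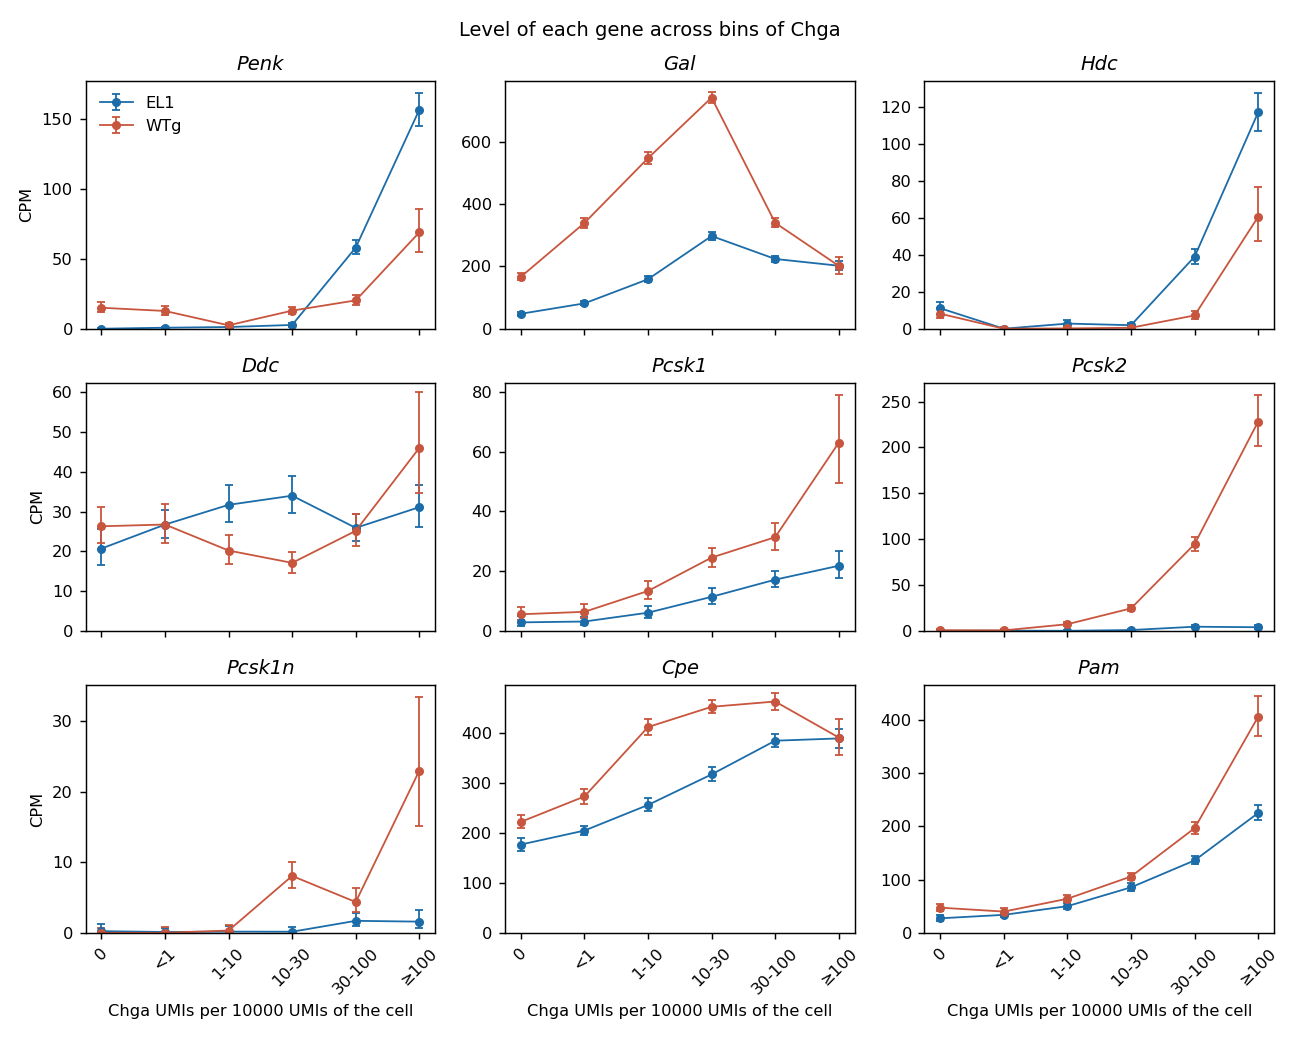
Level of 9 genes (CPM, linear axes from 0) across 6 bins of Chga UMIs per 10000 UMIs of the cell, in EL1 (blue) and WTg (red), with 95% Poisson intervals. Tph1 is left out for its single UMI. Penk and Hdc climb in the top bins, Pcsk2 climbs in WTg and not in EL1, and Gal peaks at 10 to 30 in both.

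Among Chga-high cells alone, the libraries differed in much the same members. Of 9 members, 3 were at least 2-fold higher in WTg (Gal, Pcsk2 and Pcsk1n), where 6.31% of 14542 genes were, and 2 at least 2-fold lower (Penk and Hdc), where 8.02% of all genes were. Hdc was at 44.5 CPM in EL1 and 7.08 CPM in WTg, 6.29-fold lower, and Penk at 62.4 and 19.5 CPM, 3.20-fold lower. Pcsk2 was at 3.12 CPM in EL1 and 64.4 CPM in WTg, 20.6-fold higher. Pcsk1n was at 1.18 and 7.71 CPM, 6.56-fold higher, and Gal at 243 and 556 CPM, 2.29-fold higher. Pcsk1, Cpe, Pam and Ddc were within 2-fold, with log2 ratios of 0.86, 0.31, 0.20 and -0.43. Chga itself was 1.75-fold lower in the Chga-high cells of WTg. Without the 5 cells with most UMIs of each in each library, Hdc was at a log2 ratio of -4.61, Pcsk2 at 5.55 and Pcsk1n at 4.84, and with 1 Chga cut at 20 Gal was at 0.88. Both comparisons of the libraries share these cells and are not independent of each other.

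In Chga-low cells Penk took the opposite direction, with 6 UMIs in EL1 (0.475 CPM) and 134 in WTg (13.9 CPM). Gal was again higher in WTg, at 249 CPM against 70.1 CPM.

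Clusters of cells, made without the 10 members and Chga, showed where the members were. Of 20 clusters most were nearly of 1 library, so that a cluster may be a library and not a type. In EL1, a neuroendocrine-like cluster (cluster 4) with 178 cells held 62.2% of all Penk UMIs and 41.9% of the Hdc UMIs in 16.0% of the cells. Its name rests on Chga, the only neuroendocrine marker among its 10 leading genes, and all 178 cells were Chga-high. The cluster is thus not a location independent of Chga. Penk was at 171 CPM there, Hdc at 87.3 CPM, Pam at 206 CPM and Pcsk1 at 26.1 CPM, whereas Pcsk2 had 6 UMIs. Of its 178 cells, 175 had a UMI of Cpe, 158 of Pam and 4 of Pcsk2. In cluster 9, with 74 EL1 cells led by the gastric proton pump genes Atp4b and Atp4a, Penk and Hdc were at 0, and Gal, Cpe and Pam were at 32.6, 28.6 and 3.42 CPM.

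In WTg, cluster 0 had 307 cells, 33.9% of the library, at a median of 43711 UMIs. It held 69.8% of the Gal UMIs, at 694 CPM, where all WTg cells had 465 CPM. It also held 53.0% of the Pcsk1 UMIs, at 22.4 CPM, close to the 19.7 CPM of all WTg cells. Acinar-like cells of WTg (cluster 3, 184 cells) had Gal at 341 CPM, Ddc at 30.9 CPM and Penk at 15.2 CPM, with Hdc and Pcsk1n at 0. Cluster 5, with 124 WTg cells, held 85.9% of the Pcsk1n UMIs in 16 cells. Cluster 8, with 64 WTg cells led by Serpina1 genes, had 5 of 10 neuroendocrine markers raised but none among its 10 leading genes, and was left unnamed for that reason. It held 38.4% of the Pcsk2 UMIs at 214 CPM, with Hdc at 30.8 CPM, Penk at 40.4 CPM, Pcsk1 at 52.0 CPM and Pam at 343 CPM. Macrophage-like cells of both libraries had 0 UMIs of Hdc, Pcsk1, Pcsk2 and Pcsk1n.

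Clusters 5 and 8 held cells of both libraries, though EL1 had only 14 and 16 there, below the minimum of 20 used elsewhere. In cluster 8, Pcsk2 had 2 UMIs in EL1 (5.85 CPM, 0.708 to 21.1) against 214 CPM (195 to 235) in WTg, and Hdc was at 295 CPM (240 to 359) against 30.8 CPM (23.7 to 39.3). Cpe at 485 and 472 CPM and Pam at 377 and 343 CPM had overlapping intervals. In cluster 5, the EL1 cells had Pcsk2 at 67.5 CPM (47.0 to 93.9), with 35 of the 62 Pcsk2 UMIs of EL1, and the WTg cells had 56.2 CPM. Of these 35 UMIs 20 lay in 1 cell, since no other cluster of EL1 had more than 8. The interval does not cover such clumping in cells. Pcsk2 was therefore present in EL1, but mainly in 7 cells of 1 small cluster, and most of all in 1 of them.

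**Figure D4:**
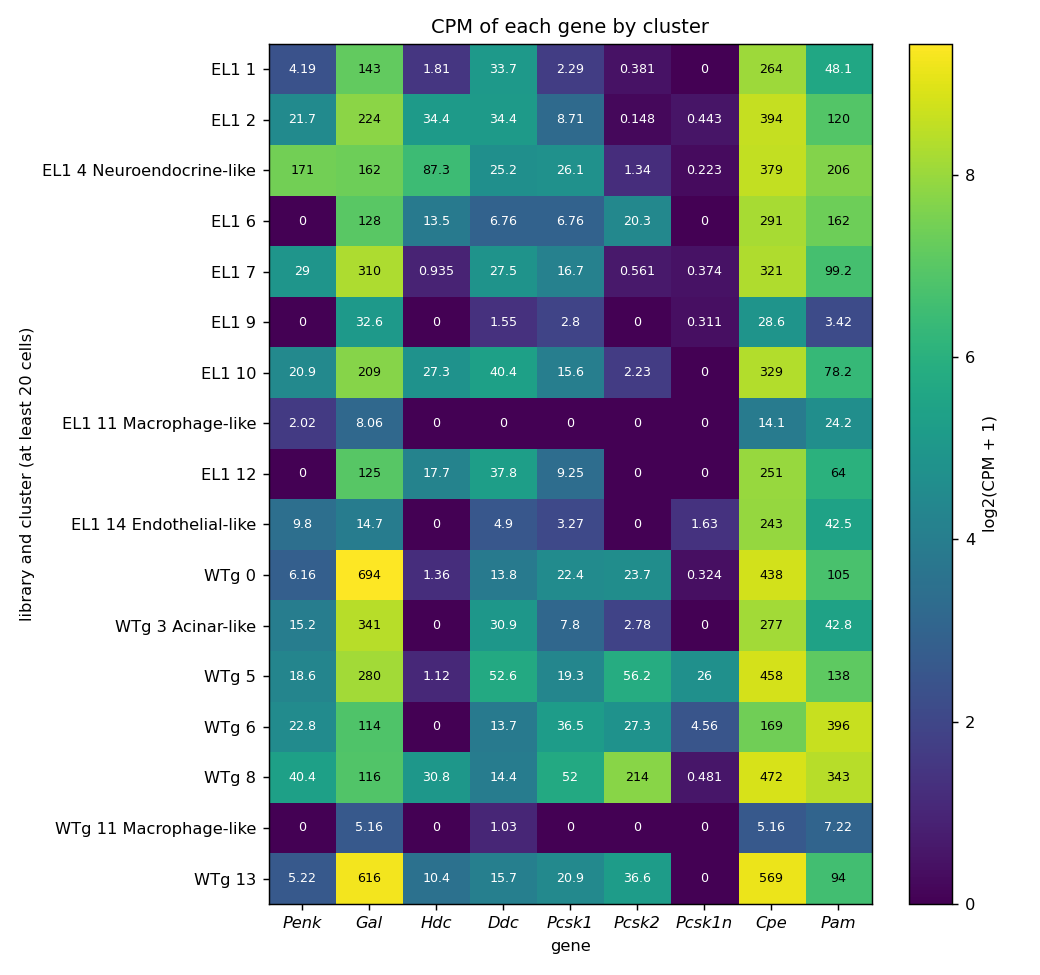
CPM of 9 genes (columns) in each cluster with at least 20 cells of a library (rows), coloured by log2(CPM + 1), with the CPM printed in each field. Penk and Hdc are highest in the neuroendocrine-like cluster of EL1 at 171 and 87.3 CPM, Pcsk2 in cluster 8 of WTg at 214 CPM, and Gal in cluster 0 of WTg at 694 CPM.

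The members also differed in how many cells carried them. In Chga-high cells of EL1, Penk was in 125 of 606 cells, and 13 cells held at least 50% of its 1220 UMIs, with up to 108 UMIs in a cell. Hdc was in 118 cells and Pcsk2 in 24, of which 1 cell held 20 of 61 UMIs. Cpe was in 566 cells and Pam in 502. In WTg, Pcsk2 was in 166 of 417 Chga-high cells, Pcsk1 in 227, Penk in 63 and Hdc in 20. Pcsk1n was in 22 cells of WTg, of which 1 held 43 of 133 UMIs. Penk, Hdc and Pcsk1n were thus high in small minorities of cells, and Cpe and Pam were widespread.

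Shares of cells were compared after thinning each cell to 2000 UMIs, which left 571 Chga-high cells of EL1 and 395 of WTg. Pcsk2 was then seen in 0.701% of Chga-high cells of EL1 (95% Clopper-Pearson interval 0.191 to 1.78) and 9.37% of WTg (6.68 to 12.7). Penk was seen in 7.88% (5.81 to 10.4) and 2.53% (1.22 to 4.61), and Hdc in 8.58% (6.42 to 11.2) and 1.52% (0.559 to 3.28). These intervals did not overlap, but they treat the cells of 1 library as independent and leave out the spread between animals. Gal was seen in 24.5% and 43.5%, Cpe in 51.3% and 56.7%, and Pam in 21.7% and 30.6%. Without thinning, at medians of 24738 and 37691 UMIs per cell, the shares of Pcsk2 were 3.96% and 39.8%. Macrophage-, lymphocyte- and erythroid-like cells served as background. Among 41 such cells of EL1 and 55 of WTg, with medians of 8989 and 12391 UMIs before thinning, Penk and Pcsk2 were seen in 0, which allows shares of cells with a UMI of up to 7.32% and 5.45% at 3 counts, with exact upper limits of 8.60% and 6.49%. Cpe was seen in 5 of the 41 and 0 of the 55.

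Members were then looked up in the same cells, among Chga-high cells thinned to 10000 UMIs. The median number of members per cell was 3 in both libraries, and 6 the maximum. In EL1, 63 of 526 cells had Pcsk1 and 12 had Pcsk2, and 0 had both. With so few Pcsk2 cells, the 0 does not show that these genes avoid each other in EL1. In WTg, 92 of 362 cells had Pcsk1 and 107 had Pcsk2, and 36 had both. Thus 36 of the 107 Pcsk2 cells of WTg had Pcsk1, where 92 of all 362 cells had it. The overlap was not tested against the shares of all cells, so the libraries are not shown to differ in it. Of the 83 Penk cells of EL1, 15 had Pcsk1 and 1 had Pcsk2. Of the 34 Penk cells of WTg, 13 had Pcsk1 and 17 had Pcsk2. Penk and Hdc were together in 20 cells of EL1, which is 24.1% of the Penk cells and 25.3% of the Hdc cells, where 79 of all 526 cells had Hdc. In WTg they were together in 1 of 34 Penk cells, and 9 of the 10 Hdc cells had Pcsk2. Cpe was in 78 of the 83 Penk cells of EL1 and in all 34 of WTg. It was also in 500 of all 526 cells of EL1 and 355 of all 362 of WTg, so these counts are near its share of all cells. Cells with few UMIs of a gene are missed by this count, so that a cell without a UMI is not shown to lack the gene.

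**Figure D5:**
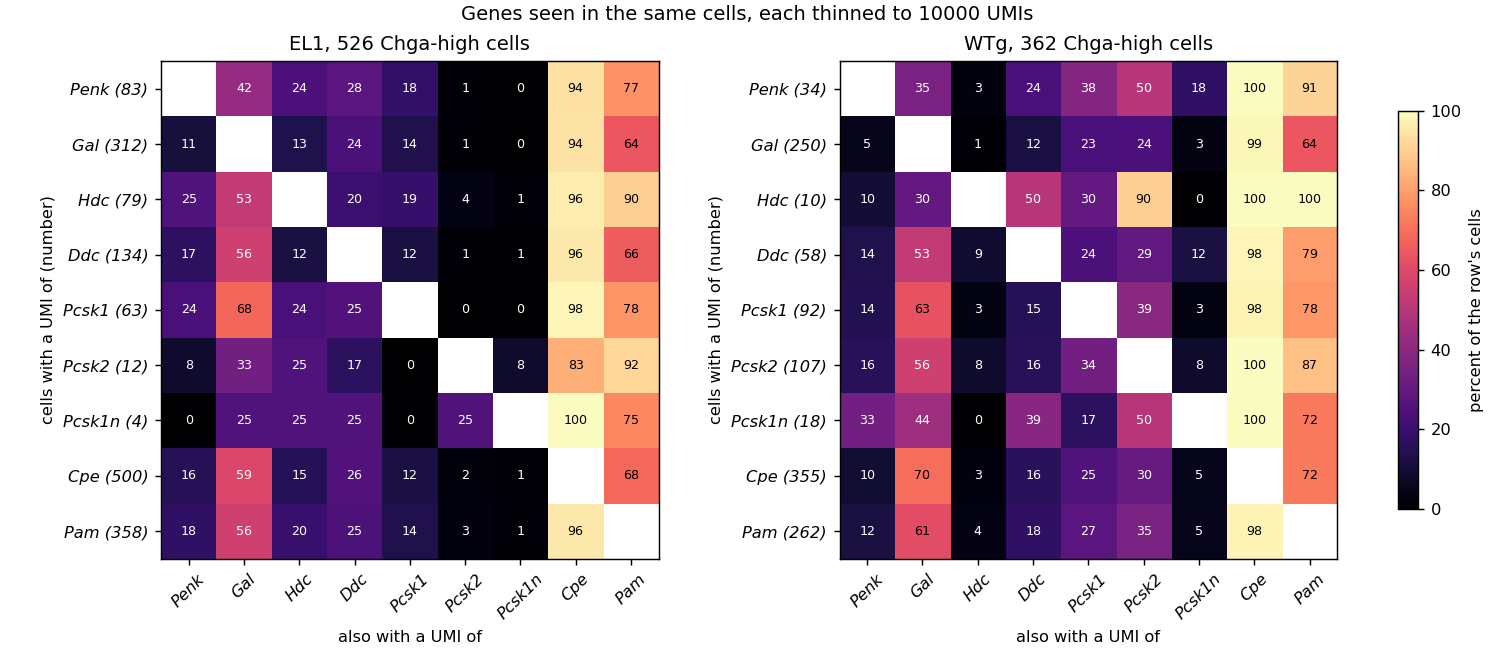
Percent of Chga-high cells with a UMI of the gene in the row (number of cells in brackets) that also had a UMI of the gene in the column, in EL1 (526 cells) and WTg (362 cells), each cell thinned to 10000 UMIs. The Cpe and Pam columns are high throughout, as both genes were in most cells. Cpe was in 95.1% of all EL1 cells and 98.1% of all WTg cells, and Pam in 68.1% and 72.4%. The Pcsk2 column is low in EL1 apart from the row of 4 Pcsk1n cells, and 2.28% of all EL1 cells had Pcsk2. It is higher in WTg, where 29.6% of all cells and 17 of 34 Penk cells had it.

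Further genes of the pathway were taken from 4 lists. Their counts stand against the shares of all genes given above, which were 10.1% higher and 6.90% lower in WTg, 12.3% and 8.52% in Chga-high cells of EL1, 11.7% and 13.0% in those of WTg, and 6.31% and 8.02% between the libraries among Chga-high cells. Of 38 other neuropeptide and hormone precursors, 17 had at least 10 UMIs over both libraries, of which 4 were at least 2-fold higher in WTg (Pomc, Cck, Ghrl and Npb) and 1 lower (Ppy). All but Pomc are named after their values were seen. Pomc, the precursor of corticotropin and beta-endorphin, was at 0.632 CPM in EL1 against 5.97 CPM in WTg, with a log2 ratio of 3.24 (2.62 to 3.92). In Chga-high over Chga-low cells, 10 of 15 precursors tested in EL1 were higher and 0 lower, and 10 of 16 in WTg were higher and 1 lower (Tac1). Vgf, a granin-like precursor, was at 328 against 10.4 CPM in EL1 and at 358 against 13.9 CPM in WTg. Uts2, for urotensin 2, was at 13.3 against 1.98 CPM in EL1, and in WTg it had 287 against 2 UMIs. Nmu, for neuromedin U, was at 5.12 against 0.712 CPM in EL1 and 7.31 against 0.520 CPM in WTg. The median log2 ratios of the list were 1.96 in EL1 and 1.12 in WTg, against 0.20 and 0.21 over all genes. With genes of at least 1 UMI they were 0.13 over 25 precursors in EL1 and 0.63 over 22 in WTg. Among Chga-high cells, 4 of 16 were higher in WTg and 2 lower.

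Of 20 genes of amine synthesis, transport and breakdown, 12 were tested in each comparison. In both libraries 3 were at least 2-fold higher in Chga-high cells, the vesicular carriers Slc18a1 and Slc18a2 and the serotonin transporter Slc6a4, and 1 was lower, the histamine methyltransferase Hnmt. Slc18a2, which loads histamine, serotonin and dopamine into granules, was at 34.9 against 0.396 CPM in EL1 and 37.4 against 0.520 CPM in WTg. Slc6a4 was at 16.2 against 1.11 CPM in EL1 and 9.63 against 0.416 CPM in WTg. The list as a whole had median log2 ratios of 0.10 in EL1 and 0.16 in WTg, against 0.20 and 0.21 over all genes. Between libraries, 1 of 12 was higher in WTg (Hnmt) and 1 lower (Spr), also among Chga-high cells, which is near the shares of all genes. Spr, for sepiapterin reductase of the cofactor pathway, was at 52.5 CPM in EL1 and 25.9 CPM in WTg. Slc18a1 and Hnmt are named after their values were seen.

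Of 18 convertases, trimming enzymes and partners, 17 were tested between the libraries. Pcsk5 was at least 2-fold lower in WTg. Pcsk6, a convertase of the constitutive pathway, was higher, at 3.79 CPM in EL1 and 12.5 CPM in WTg. In Chga-high over Chga-low cells of EL1, 1 of 16 was at least 2-fold higher (Scg5). Scg5 and Qpct were at least 2-fold higher in WTg, and 2 were lower in both libraries (Pcsk5 and Ctsb). Scg5 encodes 7B2, the chaperone that the Pcsk2 convertase needs to mature. It was at 77.3 against 3.32 CPM in EL1 and 126 against 13.2 CPM in WTg. Scg5 was thus counted in the Chga-high cells of EL1, in which Pcsk2 had 61 UMIs. Ctsb, for the lysosomal protease cathepsin B, was at 140 against 311 CPM in EL1 and 122 against 859 CPM in WTg. Among Chga-high cells 2 of 17 were lower in WTg (Pcsk5 and Qpct). Pcsk5 and Qpct are named after their values were seen. The macrophage markers summed to 64.6 CPM in Chga-high and 922 CPM in Chga-low cells of EL1 and to 165 and 2739 CPM in WTg, and their part in the lower Ctsb was not tested.

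Of 26 receptors for these peptides and amines, 8 reached 10 UMIs between the libraries, with 0 higher and 2 lower in WTg (Hrh3 and Htr5b). In Chga-high cells 4 of 6 were higher in EL1 (Galr1, Hrh1, Hrh3 and Htr3a) and 2 of 4 in WTg (Galr1 and Htr3a), and Gpr171 was lower in each. Galr1 encodes a galanin receptor and Hrh3 a histamine receptor. Among Chga-high cells 0 of 6 were higher in WTg and 3 lower (Hrh3, Htr3a and Htr5b). With so few receptors counted the medians depended on the minimum: in Chga-high over Chga-low cells they were 1.75 in EL1 and 0.53 in WTg, and -0.13 and -0.33 with genes of at least 1 UMI. None reached 200 UMIs with a 2-fold difference, and these receptors are named after their values were seen.

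Finally, the 3 genes most like each member were found by Pearson correlation over cells with at least 5000 UMIs, 975 of EL1 and 748 of WTg. Cells of a library share their depth and cluster structure, so that r is a description. Penk was most like Resp18 in both libraries (r = 0.51 in EL1 and 0.35 in WTg), followed in EL1 by Scg5 (r = 0.47). Hdc in EL1 was most like Slc18a2 (r = 0.45). In WTg its nearest were Apof (r = 0.39) and Pcsk2 (r = 0.33). Pcsk2 in WTg was most like Wnt4 (r = 0.57) and Serpina1d (r = 0.57), and Pcsk1n in WTg most like Dnm3 (r = 0.63). Pam was most like Chga in EL1 (r = 0.62) and Chgb in WTg (r = 0.61), and Pcsk1 most like Scg3 in EL1 (r = 0.32) and Chgb in WTg (r = 0.44). These are granule genes. Gal and Ddc were not like them: Gal was nearest to Prdx4 (r = 0.37) and Cpb1 (r = 0.37) in EL1 and to the trypsinogens Try10 (r = 0.59) and Prss1 (r = 0.53) in WTg, and Ddc to Ttr in both (r = 0.30 and 0.34). Cpe was nearest to Krt8 in EL1 (r = 0.60) and to Cel (r = 0.59) and Krt8 (r = 0.58) in WTg. Tph1 in both libraries and Pcsk1n in EL1 had under 50 UMIs and were not placed.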

How the data were processed

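UMI counts per gene and barcode were deposited by the authors as sparse matrices, made with Cell Ranger 6.0.2 as their header states, on build GRCm38 per the submitters' processing notes, which also name R 4.1 and Seurat 4.0.5. Whether intronic or antisense reads were counted is not given in the sources used here. Each captured molecule counts once near its 3′ end. A dense table of counts per sample was deposited as well and used as an alternative. The authors' comparisons were not used.

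Barcodes were kept if they held 500 genes and 1000 UMIs or more, with mitochondrial UMIs at 20% or less. This removed 508 barcodes of EL1 and 583 of WTg. UMIs were summed over cells and given as CPM with exact Poisson intervals, ratios with exact conditional binomial intervals and shares with Clopper-Pearson intervals, all at 95%. A sum of 0 was replaced by 3 counts, which is 0.0790 CPM in EL1 and 0.0909 CPM in WTg over all kept cells. Genes with at least 10 UMIs entered the counts of genes past 2-fold. PCR was corrected by UMIs, but intervals leave out all variation between animals. The ratio step was checked on simulated independent counts, and thinning was checked to give the set depth. The simulation had no clumping of UMIs in cells, so it does not show that the intervals cover such clumping. Other steps were not simulated.

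Cells were clustered in scanpy 1.11.5 (2000 variable genes, 30 components, 15 neighbours, Leiden resolution 1, leidenalg 0.10.2) without the members, Chga, Mettl3, Plk1 and the cell cycle genes of Seurat 5.3.0 (R 4.3.3), and with no correction between libraries. Clusters were named from marker lists, of which the neuroendocrine list included Chga. The thresholds for naming were set after clusters had been seen. A name needed 3 raised markers, more than any other class had, at least 1 of them among the 10 leading genes, and no class with more there. Clusters without a name are given by number. Scrublet (expected rate 2%) called 4 doublets in each library, which were kept, and removed in an alternative. So few calls may mean that the caller did not work here. Barcodes in both libraries numbered 15, and the copy with fewer UMIs had at most 0.878% of the UMIs of the other copy.

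The members and lists were chosen with earlier results of these data known. Named genes were the 10 members, Chga, Mettl3, up to 5 genes per list and comparison with at least 200 UMIs and a 2-fold difference, and the 3 genes with the highest Pearson correlation of log1p values with each member. Gene positions and coding stretches come from GENCODE M21 (GRCm38), in which all 10 gene IDs matched. TMM factors came from edgeR 4.0.16. Some results for the list of convertases are not reported here.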

Additional observations from a re-analysis of the deposited data

Results flagged for a closer look

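The log2 ratio of Ddc in Chga-high over Chga-low cells was 0.27 in EL1 and -0.27 in WTg, so that the libraries went opposite ways. The difference was not tested, since each library is 1 sample, and the ratio in WTg was above 0 in 1 of 13 other settings. The log2 ratio of Penk in WTg over EL1 was -1.68 in Chga-high cells and 4.87 in Chga-low cells, also untested, and 110 of the 134 UMIs of the Chga-low cells of WTg lay in acinar-like cells. Among the barcodes that the cell filter removed, which entered only alternative settings, Gal was at 119 CPM in WTg (103 to 135) against 57.8 CPM in EL1 (45.1 to 73.1). Pcsk2 was at 23.1 CPM there in WTg (16.7 to 31.1) against 0.826 CPM in EL1 from 1 UMI.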

How the results depend on the processing

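Over 458 log2 ratios of members under other settings, 375 stayed within the counting interval of the value reported, 82 moved outside it and 1 changed from a 2-fold difference to the other sign, Gal in Chga-high over Chga-low cells of WTg with 1 Chga cut at 20 per 10000 (-0.17). The direction of Pcsk2, Pcsk1n, Gal, Penk and Hdc between the libraries held in all settings tried, over all kept cells and among Chga-high cells. Without the 5 cells with most UMIs of each member, 1 member (Hdc) and not 2 was at least 2-fold lower in WTg, and Hdc, Pcsk2 and Pcsk1n were at log2 ratios of -3.39, 5.57 and 3.59. With cells weighted equally, Hdc was at -1.04 in the same comparison and 1 member was at least 2-fold lower in Chga-high cells of WTg (Hdc). Hdc in Chga-high over Chga-low cells of WTg ranged from -2.85 to 4.48 over 13 settings. The latter had 0 UMIs left in Chga-low cells, replaced by 3 counts. The number of members with over 50% of their UMIs in 1 cluster of at least 20 cells was 1 in EL1. It was 6 there at resolution 0.5 and 3 with the members kept in clustering. In WTg it was 4, with Gal, Pcsk1 and Cpe in cluster 0, which held 33.9% of the cells. At resolution 2 it was 1 in WTg. Such counts depend on the size of the clusters. With genes of at least 1 UMI, genes at least 2-fold lower numbered 2 in place of 1 for convertases between libraries, for precursors in Chga-high cells of WTg and for receptors in Chga-high cells of EL1, 3 in place of 1 for precursors between libraries, and 4 in place of 2 for precursors among Chga-high cells, where 1 receptor in place of 0 was higher. The cause of these moves was not tested. The settings that left out clusters of other cell types, of low depth or shared barcodes were added after seeing the data. Counts of 1 to 6 UMIs, as for Pcsk2 and Penk in Chga-low cells, limit the ratios that rest on them, and low genes are missed in shallow cells. No paired analysis was possible because there is only 1 library of each genotype.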
